A study of Homo sapiens with 12 samples.

Results

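Oncofetal genes are active in the fetal liver, largely silent in the adult organ and active again in many hepatocellular carcinomas. The 10 genes described here are the surface proteoglycan gene GPC3, the growth factor gene IGF2, its imprinted neighbour H19, the RNA-binding protein genes IGF2BP1, IGF2BP2, IGF2BP3 and LIN28B, the transcription factor gene SALL4, the membrane protein gene DLK1 and the chromatin protein gene HMGA2. They were matched by name to the deposited expression table of 22963 gene names. A row was found for 9 of the 10, and the expression of H19 was not analysed here.

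The values come from 12 RNA-seq libraries of a study of the transcription factor EGR1 in hepatocellular carcinoma cells, in 4 groups of 3. PLC/PRF5 cells, from a human hepatoma, carried either the empty vector or a construct for EGR1 overexpression. MHCC97H cells, a human hepatocellular carcinoma line, were either the unmodified parental cells or cells labelled EGR1 knockout. Expression is given as FPKM, the fragments assigned to a gene divided by its transcript length and by the depth of the library. Levels of different genes can thus be set side by side only roughly. FPKM does not adjust for GC content or for the nuclease step described under processing. The overexpression plasmid places the EGR1 coding sequence behind a CMV promoter and was delivered by lentivirus. The knockout lines were made with CRISPR/Cas9 and grown from single clones, and the clone that was sequenced is not given in the sources used here. The labels call the 3 libraries of a group biological replicates without naming separate cultures, so p-values measure the spread between these libraries, which may be technical.

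These genes form a connected set. LIN28B is an RNA-binding protein that stops the precursors of let-7 microRNAs from maturing, and let-7 in turn represses HMGA2, the IGF2BP genes and LIN28B itself. The IGF2BP proteins bind and stabilise mRNAs, IGF2 mRNA among them, and IGF2 drives fetal growth through the IGF1 and insulin receptors. GPC3 is a heparan sulfate proteoglycan used as a tissue marker of hepatocellular carcinoma, SALL4 keeps fetal hepatic progenitors undifferentiated, and DLK1 marks hepatoblasts. HMGA2 bends AT-rich DNA and is shut off in most adult tissues.

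The sum of FPKM was 376335 to 437652 per library, and the number of reads behind it is unknown, so no counting error or detection floor could be given. EGR1 itself was 1.81 ± 0.328 FPKM (SD, n = 3) in vector cells and 52.9 ± 3.10 in EGR1 cells, a rise of 4.27 on the log2 scale (limma, adjusted p = 1.58e-07). In MHCC97H cells EGR1 was 20.2, 23.1 and 21.2 FPKM in the parental libraries and 35.2, 50.3 and 32.9 in the libraries labelled knockout, which is higher and not lower. A gene-level value counts an edited transcript too and says nothing about the protein, and the study's methods state that knockout clones were checked by western blot and by sequencing of their DNA. The mRNA goes against the label, so the group is called by its label throughout. The 14 hepatocyte markers summed to 1997 to 2138 FPKM in vector, 2849 to 3807 in EGR1, 119 to 138 in parental and 227 to 245 in EGR1_KO libraries, with 11 of 14 at a mean of at least 1 FPKM in the PLC/PRF5 groups and 7 of 14 in the MHCC97H groups. The 8 fibroblast markers summed to at most 10.9 FPKM in any library. The 8 blood cell markers reached 216 FPKM in vector libraries, where LYZ and CD68 were the 2 markers with a mean of at least 1 FPKM and PTPRC and CD3E were listed at 0. The 6 endothelial markers stayed at or below 8.52 FPKM. The summed hepatocyte markers were higher together with EGR1 mRNA in both treated groups. With EGR1 overexpression 4 of 11 tested were called higher and 2, TF and CEBPA, lower, beside 19.2% and 10.4% of all genes tested. SERPINA1 alone was 1372 FPKM in vector and 2580 in EGR1 cells as means. Under the EGR1_KO label 5 of 7 were called higher and 0 lower (limma, 5 and 0 also at an unadjusted p under 0.05), beside 34.8% and 31.5% of all genes. After the correction for GC content and transcript length described below, the counts were 4 and 1 with EGR1 overexpression, where CEBPA lost its call. Under the EGR1_KO label they were 5 and 1, with FOXA2 lower at -0.50. The part of these markers in the results on the oncofetal genes was not tested.

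The oncofetal genes were more abundant in PLC/PRF5 than in MHCC97H libraries. The 9 measured members summed to 127 to 141 FPKM in vector, 135 to 148 in EGR1, 42.4 to 48.1 in parental and 29.8 to 37.4 in EGR1_KO libraries. A mean of at least 1 FPKM was reached by 8 members in both PLC/PRF5 groups and by 4, IGF2BP1, IGF2BP2, IGF2BP3 and HMGA2, in both MHCC97H groups. In bulk RNA, fewer cells with a transcript and less of it per cell cannot be told apart.

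**Figure D1:**
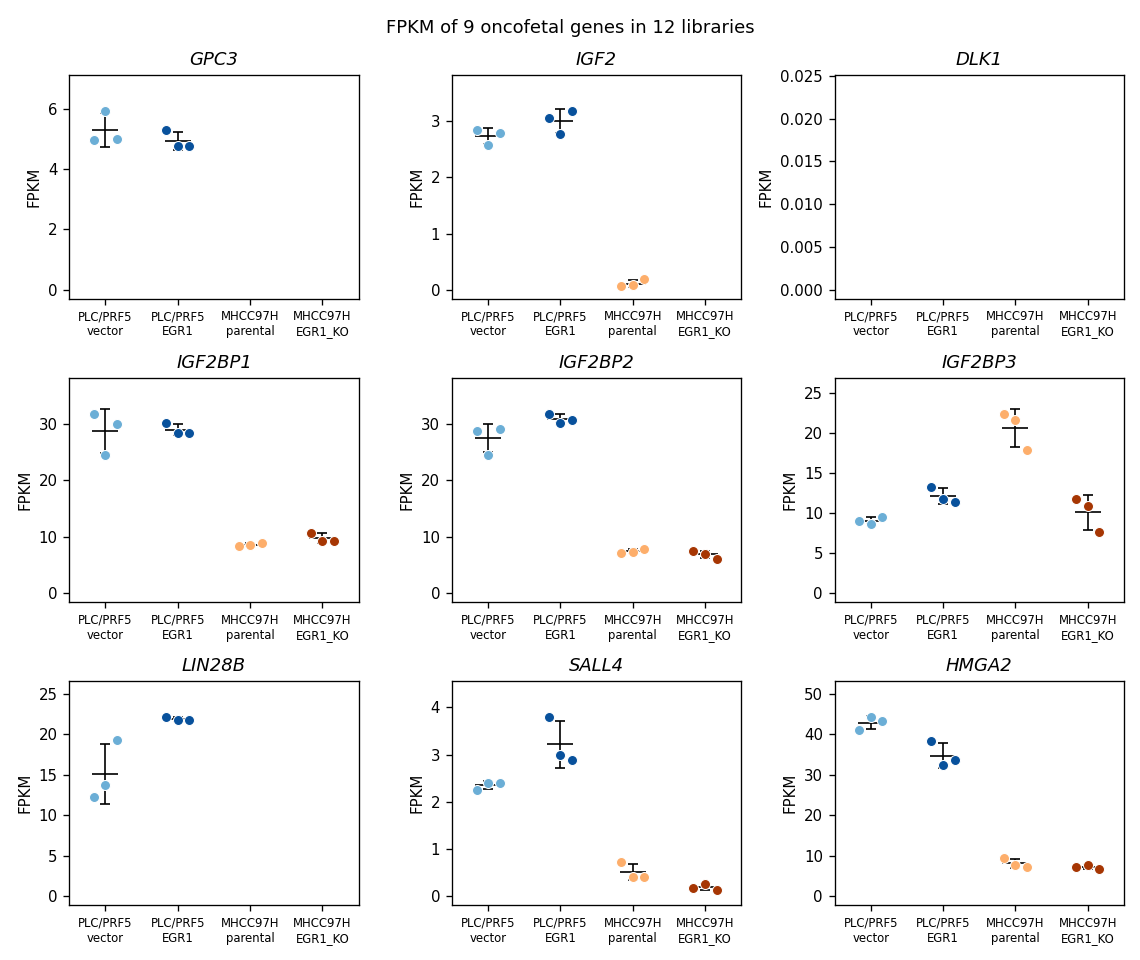
FPKM (linear axes from 0, scale set per gene) of the 9 measured oncofetal genes in the 12 libraries. Each point is 1 library, and the bars give the mean and SD of 3 libraries. Points and bars are drawn only for groups where no library is listed at 0. Left blank are therefore GPC3 and LIN28B in both MHCC97H groups, IGF2 in EGR1_KO and DLK1 in every group. GPC3 and LIN28B were listed at 0 in all MHCC97H libraries. IGF2BP3 is highest in parental MHCC97H, and HMGA2, IGF2BP1 and IGF2BP2 are higher in PLC/PRF5.

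Differences were tested on log2(FPKM + 1) with limma over all genes with a mean of at least 1 FPKM in the libraries compared, and a gene was called at a Benjamini-Hochberg adjusted p under 0.05. With EGR1 overexpression, 2 of the 8 tested members were called higher (LIN28B and IGF2BP3) and 1 lower (HMGA2), beside 19.2% and 10.4% of all 11671 genes tested and 29.6% in either direction. Between the EGR1_KO and parental libraries, 0 of the 4 tested members were called higher by limma, also at an unadjusted p under 0.05, and 1, IGF2BP3, was called lower, beside 34.8% and 31.5% of 11577 genes and 66.3% in either direction. Between parental MHCC97H and vector PLC/PRF5 cells, 8 members passed the filter, and 4 of them, IGF2BP1, IGF2BP2, IGF2BP3 and HMGA2, had a mean of at least 1 FPKM in both groups. Of these 4, 3 were called lower in MHCC97H and 1, IGF2BP3, higher, beside 40.9% and 38.8% of 12046 genes and 79.8% in either direction. GPC3, IGF2, LIN28B and SALL4 passed through the vector libraries alone, so they had to be lower in MHCC97H and are described there without a test. Other genes under 1 FPKM in 1 of the groups compared entered in the same way, and their share of the list counts is fixed to that extent. Counted by libraries that did not overlap between the groups, 4 of 8 members were higher in EGR1 than in vector cells and 1 lower, beside 30.4% and 17.3% of genes and 47.7% in all. The same count was 1 higher and 1 lower of 4 under the EGR1_KO label, beside 38.3% and 33.6% and 71.8% in all. It was 1 higher and 3 lower of the 4 members expressed in both lines, beside 39.2% and 41.7% and 81% in all. The median difference of the members was 0.13 with EGR1 overexpression and -0.12 under the EGR1_KO label, beside medians of 0.09 and 0.02 over all genes tested. The comparison of the lines uses the same vector and parental libraries as the other two, and the vector plasmid is present in only 1 of the lines, so line and plasmid cannot be told apart.

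Differences between libraries also followed transcript composition. A spline on GC content and transcript length accounted for 18.5% of the variance of the differences with EGR1 overexpression, where the rank correlation with GC content across genes was -0.45, and 54.5% under the EGR1_KO label, where it was 0.77. Between the lines it accounted for 8.20%. Genes are not independent replicates, and whether the trend is technical was not tested. LIN28B, HMGA2 and IGF2BP3 have AT-rich transcripts, with 38.1%, 38.8% and 40.5% GC against a median of 48.7% over the genes tested in PLC/PRF5. Each test on them is therefore also given after a spline on GC content and length was removed. Counts given with this correction stand beside shares of all genes without it. The correction changed the calls over all genes as well, as given under the dependence on the processing.

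**Figure D2:**
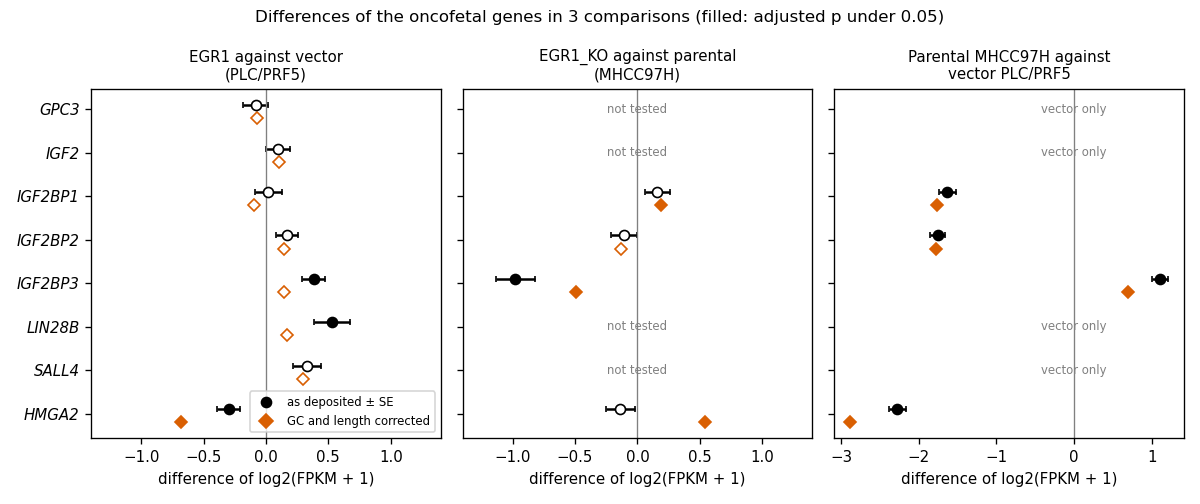
Difference of log2(FPKM + 1) of the 8 members above the expression filter, for EGR1 against vector, EGR1_KO against parental and parental MHCC97H against vector PLC/PRF5. Black circles with SE bars are the deposited values, orange diamonds the values after the GC and length correction, and filled symbols have an adjusted p under 0.05 (limma, 3 libraries against 3). The scale of the right panel is wider, and it leaves out the 4 members that passed the filter through the vector libraries alone. LIN28B and IGF2BP3 lose their call in the left panel with the correction, and HMGA2 changes sign in the middle panel.

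GPC3 anchors heparan sulfate at the cell surface and was detected in PLC/PRF5 but not in MHCC97H libraries. The gene spans chromosome X from 133535745 to 133985895 on the minus strand (GRCh38). GPC3 was 4.95, 5.94 and 5.00 FPKM in the vector libraries and 5.29, 4.76 and 4.77 in the EGR1 libraries. The groups overlapped, and the difference of -0.08 ± 0.10 (SE) on the log2(FPKM + 1) scale was not called (limma, adjusted p = 0.567). In all 6 MHCC97H libraries GPC3 was listed at 0, so neither a fold nor a test is given between the lines.

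Other genes of the heparan sulfate surface were not arranged like GPC3. Of 15 listed glypicans, syndecans and heparan sulfate enzymes, 11 were tested between the lines. Of these, 4 were called higher in MHCC97H and 6 lower, beside 38.8% and 40.9% of all genes. GPC1, another glypican, was 5.37 ± 0.116 FPKM in vector and 51.2 ± 4.12 in parental MHCC97H cells, a difference of 3.03 (adjusted p = 9.24e-09). SDC2, a syndecan, ran the other way, from 26.0 FPKM in vector to 0.0107 in parental cells. With EGR1 overexpression 2 of 9 tested genes of the list were called higher and 5 lower, beside 19.2% and 10.4% of all genes. The list counts were 1 and 4 with the GC and length correction. SDC1 was among the lower genes, at 70.1 ± 4.80 and 47.8 ± 5.95 FPKM (-0.55, adjusted p = 0.00689). In the EGR1_KO libraries 6 of 10 were called higher and 1 lower, beside 34.8% and 31.5% of all genes, or 5 and 2 with the correction. SDC1 was 42.1 ± 3.31 in parental and 115 ± 7.96 FPKM in EGR1_KO libraries (1.42, adjusted p = 1.65e-05). The SDC1 calls remained after the correction, at -0.50 (adjusted p = 0.00263) and 0.88 (adjusted p = 1.59e-05). NOTUM, an enzyme that releases glypicans and inactivates Wnt proteins, was 3.23 ± 0.374 FPKM in parental and 0.147 ± 0.0578 in EGR1_KO libraries.

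IGF2, the fetal growth factor, was low in PLC/PRF5 cells and close to 0 in MHCC97H cells. It lies on the minus strand of chromosome 11, with an outer span of 2129112 to 2158658 over 2 annotated gene records of that name. It shares this locus with the read-through gene INS-IGF2, which was listed at 0 in all 12 libraries. IGF2 was 2.84, 2.58 and 2.79 FPKM in vector libraries and 3.05, 2.77 and 3.19 in EGR1 libraries. These groups overlapped, with a difference of 0.10 ± 0.10 (limma, adjusted p = 0.462). In MHCC97H it was 0.0641, 0.0784 and 0.183 FPKM in parental libraries and 0.00882, 0 and 0.0213 in EGR1_KO libraries. All EGR1_KO values lay below all parental values, but a level this low was outside the filter. When every gene with any signal entered the limma fit, the difference of -0.13 had an adjusted p of 0.0492. Under the main filter 66.3% of genes were called in that comparison. All parental MHCC97H values lay below all vector values. The strandedness of the libraries is not given in the sources used here, so antisense reads at this locus cannot be told apart from IGF2.

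Several binding proteins of the IGF axis were called where IGF2 was not. Of 18 listed IGF axis genes, 10 were tested with EGR1 overexpression, and 4 were called higher and 1 lower. This stands beside 19.2% and 10.4% of all genes, and the list counts were 3 and 2 with the GC and length correction. IGFBP2, a secreted IGF-binding protein, was 1.14 ± 0.246 FPKM in vector and 16.7 ± 1.17 in EGR1 cells (3.05, adjusted p = 1.92e-06). IGFBP1, the insulin-regulated binding protein of hepatocytes, was 261 ± 20.1 and 920 ± 87.8 FPKM (1.81, adjusted p = 2.76e-05). IGFBP3, the main carrier of IGFs in serum, was lower, at 76.3 ± 2.24 and 54.5 ± 2.14 FPKM (-0.48, adjusted p = 0.00345). Against parental cells, 7 of 12 tested genes were called higher in EGR1_KO libraries and 1 lower, beside 34.8% and 31.5% of all genes. The lower gene was PLAG1, a transcription factor known to activate IGF2, at 1.86 FPKM in parental and 0.818 in EGR1_KO cells (-0.66). PLAG1 passed the filter through the parental libraries alone, so it had to be lower as deposited and no p-value is given. With the GC and length correction the counts were 8 and 0, and PLAG1 changed sign to 0.11 and was not called. IGFBP2 was again higher, from 31.3 ± 2.84 to 225 ± 27.2 FPKM (2.80, adjusted p = 7.58e-07). IGFBP2 kept both calls after the GC and length correction, at 3.27 and 2.00. IGF1 was at or below 0.00428 FPKM as a group mean in all 4 groups. IGF1R, the receptor through which IGF2 signals, was 0.904 ± 0.211 in vector and 1.54 ± 0.168 in EGR1 cells. It passed the filter through the EGR1 libraries alone, so it had to be higher there and no p-value is given. Its difference was 0.42 as deposited and 0.27 after the correction.

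DLK1, the hepatoblast marker on chromosome 14 (100725705 to 100738224, plus strand), was at or near 0 in every group. The 12 libraries held 2 values above 0, which were 0.0209 FPKM in an EGR1 library and 0.0185 in a parental library. DLK1 was never above the filter and was not tested in the comparisons. Other imprinted genes were expressed. Of 20 listed imprinted genes, 11 were tested between the lines, with 4 called higher in MHCC97H and 6 lower, beside 38.8% and 40.9% of all genes. NDN, a paternally expressed growth suppressor, was 21.1 ± 0.199 FPKM in vector and 0.00925 as a mean in parental cells. MEST, a paternally expressed gene of fetal tissue, was 0.512 ± 0.224 in vector and 10.6 ± 0.433 in parental cells. With EGR1 overexpression 1 of 9 tested was called higher and 3 lower, beside 19.2% and 10.4% of all genes, or 1 and 2 with the correction. The higher gene was PEG10, a retrotransposon-derived gene expressed in placenta and liver cancer, at 42.9 ± 4.69 and 97.6 ± 3.05 FPKM (1.17, adjusted p = 1.32e-04, and 1.01 after the GC and length correction). In the EGR1_KO libraries 3 of 9 were called higher and 4 lower, beside 34.8% and 31.5% of all genes. The list counts became 1 and 4 with the correction.

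The 3 IGF2BP genes encode closely related proteins that bind and stabilise target mRNAs. IGF2BP1 lies on chromosome 17 (48997412 to 49055650, plus strand), IGF2BP2 on chromosome 3 (185643739 to 185825056, minus strand) and IGF2BP3 on chromosome 7 (23310209 to 23470467, minus strand). Their summed level was 65.3 ± 6.67 FPKM in vector, 72.0 ± 2.74 in EGR1, 36.7 ± 1.81 in parental and 26.6 ± 3.56 in EGR1_KO cells. IGF2BP1 and IGF2BP2 made up most of it in PLC/PRF5 cells and IGF2BP3 most of it in parental MHCC97H cells.

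IGF2BP3 was 9.03, 8.60 and 9.52 FPKM in vector, 13.3, 11.7 and 11.3 in EGR1, 22.4, 21.6 and 18.0 in parental and 11.8, 10.9 and 7.63 in EGR1_KO libraries. All EGR1 values lay above all vector values, and all EGR1_KO values lay below all parental values. With EGR1 overexpression the difference was 0.38 ± 0.09 (SE) on the log2(FPKM + 1) scale (limma, adjusted p = 0.0170). After the GC and length correction it was 0.15 (adjusted p = 0.264), and without EGR1 replicate 2 it was 0.40 (adjusted p = 0.0540). Between EGR1_KO and parental libraries IGF2BP3 was lower by 0.98 ± 0.15 (adjusted p = 6.50e-04), a ratio of mean FPKM of 0.489. That call remained in all 16 fits made, and the corrected difference was -0.49 (adjusted p = 0.00408). EGR1 mRNA was higher in both treated groups while IGF2BP3 was higher in EGR1 cells and lower in EGR1_KO cells, and the difference between these 2 effects was not tested. Of the 4 members expressed in both lines IGF2BP3 alone was higher in parental MHCC97H than in vector PLC/PRF5 cells, by 1.10 ± 0.10 (adjusted p = 1.39e-05), or 2.28 times the FPKM. The corrected line difference was smaller, at 0.69 (adjusted p = 8.27e-05).

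IGF2BP1 was 31.8, 24.5 and 30.1 FPKM in vector, 30.1, 28.4 and 28.5 in EGR1, 8.31, 8.56 and 8.81 in parental and 10.7, 9.19 and 9.17 in EGR1_KO libraries. The PLC/PRF5 groups overlapped, with a difference of 0.02 ± 0.11 (limma, adjusted p = 0.910). In MHCC97H the groups did not overlap, but the difference of 0.16 ± 0.10 was not called (adjusted p = 0.182). After the GC and length correction it was 0.19 and called (adjusted p = 0.0279), and 71.8% of the genes tested there had groups that did not overlap. The line difference of -1.63 ± 0.11 was called (adjusted p = 1.39e-06).

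IGF2BP2 was 28.8, 24.6 and 29.1 FPKM in vector, 31.8, 30.2 and 30.8 in EGR1, 7.17, 7.32 and 7.82 in parental and 7.42, 7.01 and 6.08 in EGR1_KO libraries. The EGR1 values were all above the vector values, as was so in 1 direction or the other for 47.7% of genes, and the difference of 0.17 ± 0.09 was not called (adjusted p = 0.189). In MHCC97H the groups overlapped (-0.11 ± 0.10, adjusted p = 0.379). IGF2BP2 was lower in parental MHCC97H than in vector PLC/PRF5 cells by 1.75 ± 0.10 (adjusted p = 3.79e-07), as IGF2BP1 was.

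Expressed as a share of the summed IGF2BP FPKM, IGF2BP3 made up 13.9% ± 0.982 (SD, n = 3) in vector, 16.8% ± 0.798 in EGR1, 56.3% ± 3.83 in parental and 37.7% ± 3.76 in EGR1_KO cells. The share of IGF2BP1 was 44.0% ± 1.62, 40.3% ± 0.189, 23.4% ± 1.85 and 36.6% ± 3.15 in the same order. The share of IGF2BP2 was 42.1% ± 0.663, 43.0% ± 0.645, 20.3% ± 1.98 and 25.7% ± 0.911. The libraries of a line did not overlap between its groups for IGF2BP1 and IGF2BP3, with an exact 2-sided permutation p of 0.1 in each comparison, which is the smallest that 3 against 3 allows. For IGF2BP2 in PLC/PRF5 cells the exact permutation p was 0.3. Because the shares add to a whole, the fall of the IGF2BP3 share in EGR1_KO cells stands against higher shares of the others, while the FPKM of IGF2BP1 and IGF2BP2 were not called as deposited. The shares rest on uncorrected FPKM. With the GC and length correction, the lower value of IGF2BP3 shrank from -0.98 to -0.49 and IGF2BP1 was called higher.

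**Figure D3:**
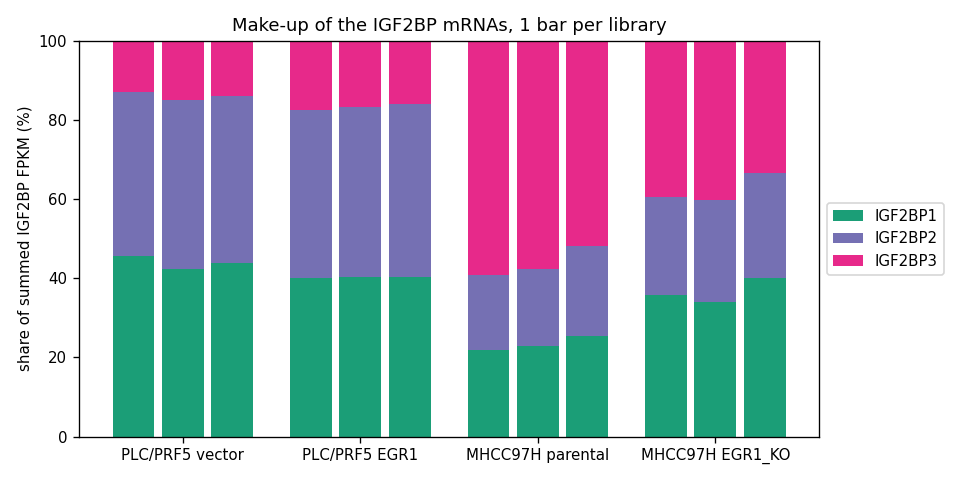
Share (%) of IGF2BP1, IGF2BP2 and IGF2BP3 in their summed FPKM, with 1 stacked bar per library and 3 libraries per group. IGF2BP3 takes 13.9% on average in vector PLC/PRF5 cells and 56.3% in parental MHCC97H cells, and 37.7% in the libraries labelled EGR1_KO.

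LIN28B lies on chromosome 6 (104936616 to 105083332, plus strand). It was 12.3, 13.7 and 19.3 FPKM in vector libraries, 22.1, 21.7 and 21.7 in EGR1 libraries and listed at 0 in all 6 MHCC97H libraries. The EGR1 values lay above all vector values, and vector replicate 3 stood closest to them. The difference was 0.53 ± 0.14 (SE) on the log2(FPKM + 1) scale, or 1.45 times the FPKM (limma, adjusted p = 0.0249). The call was lost after the GC and length correction, at 0.17 (adjusted p = 0.337). It was also lost in 5 of the 6 fits that left out a library, with adjusted p of 0.0595 to 0.0735, and held without vector replicate 3 (0.71, adjusted p = 0.00630). Between the lines neither a fold nor a test is given, because MHCC97H was at 0. LIN28A, the paralog that acts on the same precursors, was at or below 0.0146 FPKM as a group mean in all groups.

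The sequences that link LIN28B to the other members are the let-7 microRNAs and their sites. The mature forms are from RefSeq on GRCh38.p14, with the seed (bases 2 to 8), which all of them share, in capitals.
let-7a-5p (chr9:94175962-94175983, plus strand): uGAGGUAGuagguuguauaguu
let-7b-5p (chr22:46113691-46113712, plus strand): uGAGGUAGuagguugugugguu
let-7g-5p (chr3:52268336-52268357, minus strand): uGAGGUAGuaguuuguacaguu
miR-98-5p (chrX:53556299-53556320, minus strand): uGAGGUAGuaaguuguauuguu

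The complement of this seed, CTACCTC, was searched on the sense strand of the 3′ UTR of the principal GENCODE 29 transcript of each gene. Of 9 members, 6 held at least 1 match, as did 8.70% of 18792 genes. LIN28B, HMGA2 and IGF2BP1 held 4 each, a number reached by 12 genes or 0.0639% of all, and IGF2BP2, IGF2BP3 and SALL4 held 1 each. Among genes within 1.2-fold of the same UTR length, 4 or more were held by 0.279% for LIN28B, 0.120% for HMGA2 and 0.701% for IGF2BP1. GPC3, IGF2 and DLK1 held 0, with UTRs of 379, 4470 and 3328 bases. The match nearest the stop codon is shown for each gene with its flanks (GRCh38), with the 7 matching bases in capitals. A match is a description of the letters and not a measured site, and small RNA was not measured in these libraries.
LIN28B site (chr6:105078815-105078835, plus strand): cggttgcaaagtCTACCTCat
HMGA2 site (chr12:65963301-65963321, plus strand): aacgttcgatttCTACCTCag
IGF2BP1 site (chr17:49051064-49051084, plus strand): gtgcgaagtaaaCTACCTCaa
IGF2BP2 site (chr3:185644219-185644239, minus strand): acacagaagaagCTACCTCag
IGF2BP3 site (chr7:23311794-23311814, minus strand): atttttactcaaCTACCTCag
SALL4 site (chr20:51782922-51782942, minus strand): gctttaatttatCTACCTCat

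The machinery around let-7 was mostly expressed in both lines. Of 14 listed names for let-7 processing factors, 12 had a row and 11 were tested with EGR1 overexpression. There 4 were called higher and 0 lower by limma, with 5 and 0 at an unadjusted p under 0.05, beside 19.2% and 10.4% of all genes called. With the GC and length correction 3 were called higher and 0 lower. TUT4 and TUT7, the uridylyl transferases that LIN28 proteins recruit to let-7 precursors, were 5.14 ± 0.765 and 3.08 ± 0.125 FPKM in vector and 8.42 ± 0.641 and 4.95 ± 0.389 in EGR1 cells. Their differences were 0.62 (adjusted p = 0.00548) and 0.54 (adjusted p = 0.00458), and 0.34 and 0.28 after the GC and length correction, both still called (adjusted p = 0.0130 and 0.0320). In MHCC97H cells 2 of 10 were called higher under the EGR1_KO label and 6 lower, beside 34.8% and 31.5% of all genes. The counts became 2 and 3 with the correction. TUT4 was -0.72 (adjusted p = 0.00146) and then -0.17 (adjusted p = 0.179), and TUT7 was -0.80 (adjusted p = 0.00110) and then -0.29 (adjusted p = 0.0153). Between the lines 2 of 11 were called higher in MHCC97H and 5 lower, beside 38.8% and 40.9% of all genes, or 2 and 8 with the correction. The higher genes were AGO2 at 1.23 and TUT7 at 0.74. TRIM71, an RNA-binding protein of early development that is itself a let-7 target, was 4.89 ± 0.757 FPKM in vector and 0.410 ± 0.0924 in parental MHCC97H cells. It passed the filter through the vector libraries alone, so it had to be lower in MHCC97H.

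Of 18 listed genes known as let-7 targets outside the members, 15 were tested between the lines. Of these, 4 were called higher in MHCC97H and 10 lower, beside 38.8% and 40.9% of all genes. ARID3B, an AT-rich DNA-binding protein, was 15.5 ± 2.64 FPKM in vector and 0.863 ± 0.134 in parental cells. MYC, the growth-promoting transcription factor, ran the other way at 24.2 ± 1.78 and 94.0 ± 2.01 FPKM (1.92, adjusted p = 7.43e-08). With EGR1 overexpression 5 of 15 were called higher and 0 lower by limma, with 7 and 0 at an unadjusted p under 0.05. All genes were called at 19.2% and 10.4% there, and the list counts were 5 and 1 with the correction. CDK6, a cyclin-dependent kinase, showed the largest rise as deposited, at 3.85 ± 0.456 and 7.68 ± 1.47 FPKM (0.83, adjusted p = 0.00326, and 0.42 after correction). In EGR1_KO libraries 3 of 12 were called higher and 6 lower, beside 34.8% and 31.5% of all genes, or 2 and 4 with the correction. CDK6 was at -0.97 (adjusted p = 0.00154) and -0.29 after correction. HMGA1, the relative of HMGA2, was 172 ± 16.1 in parental and 348 ± 17.4 FPKM in EGR1_KO libraries (1.01, adjusted p = 5.37e-05, and 0.36 after correction). DICER1 and TRIM71 stand in both let-7 lists.

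EGR1 binds GC-rich elements near transcription starts, so the promoters were read where they were given. RefSeq promoters, from 250 bases before to 50 after the start, were matched for 4 of the 10 members, H19, IGF2BP2, IGF2BP3 and LIN28B. The EGR elements GCGTGGGCG and GCGGGGGCG were searched on both strands, and none of the 4 promoters held either, while 7.75% of 15173 promoters did. The GC box GGGCGG, which can overlap an EGR element, occurred 7 times in IGF2BP2, 2 times in LIN28B and 0 times in IGF2BP3, and 59.3% of promoters held it. The absence of these letters from the window says nothing about EGR1 binding. The LIN28B window lies inside the annotated gene, downstream of its outermost start at 104936616, so that start was not searched. The promoters of LIN28B and IGF2BP3 are shown (GRCh38.p14) because these were the members called higher with EGR1 overexpression, with GC boxes on either strand in capitals.
LIN28B promoter (chr6:104940715-104941014, plus strand): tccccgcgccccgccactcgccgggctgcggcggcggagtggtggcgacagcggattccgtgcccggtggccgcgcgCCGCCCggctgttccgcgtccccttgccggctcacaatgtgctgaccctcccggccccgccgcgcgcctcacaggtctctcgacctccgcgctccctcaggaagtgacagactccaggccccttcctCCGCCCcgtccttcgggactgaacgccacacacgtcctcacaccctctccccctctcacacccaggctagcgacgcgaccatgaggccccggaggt
IGF2BP3 promoter (chr7:23470442-23470741, minus strand): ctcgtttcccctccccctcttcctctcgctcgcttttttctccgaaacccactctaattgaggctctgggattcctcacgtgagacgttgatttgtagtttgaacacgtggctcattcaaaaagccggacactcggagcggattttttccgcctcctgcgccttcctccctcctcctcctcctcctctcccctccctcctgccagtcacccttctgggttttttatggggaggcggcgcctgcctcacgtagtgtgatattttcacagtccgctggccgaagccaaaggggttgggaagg

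HMGA2, on chromosome 12 (65824131 to 65966295, plus strand), was the most abundant member in PLC/PRF5 cells. It was 41.1, 44.3 and 43.3 FPKM in vector, 38.3, 32.3 and 33.6 in EGR1, 9.39, 7.79 and 7.17 in parental and 7.29, 7.72 and 6.77 in EGR1_KO libraries. The EGR1 values lay below all vector values, while the MHCC97H groups overlapped. With EGR1 overexpression HMGA2 was lower by 0.30 ± 0.09 on the log2(FPKM + 1) scale (limma, adjusted p = 0.0360). The corrected difference was larger, at -0.68 (adjusted p = 1.67e-04). Without correction the call was lost in 5 of the 6 fits that left out a library, with adjusted p up to 0.142, and held without EGR1 replicate 1 (-0.37, adjusted p = 0.0142). In EGR1_KO against parental libraries the difference was -0.14 ± 0.12 (adjusted p = 0.324) as deposited and 0.54 (adjusted p = 0.00133) after correction, so the sign depends on it. The line difference of -2.27 ± 0.11 (adjusted p = 1.32e-07), or -2.88 after correction (adjusted p = 9.06e-10), was called in all 16 fits.

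SALL4, on chromosome 20 (51782331 to 51802520, minus strand), was low throughout. It was 2.25, 2.41 and 2.39 FPKM in vector, 3.80, 2.99 and 2.88 in EGR1, 0.717, 0.415 and 0.403 in parental and 0.171, 0.261 and 0.139 in EGR1_KO libraries. The groups overlapped in neither line, with SALL4 higher in EGR1 and lower in EGR1_KO cells. The EGR1 difference of 0.33 ± 0.11 missed the threshold (limma, adjusted p = 0.0540), and 2 of the 16 fits called it. In MHCC97H SALL4 was under the filter, and with all detected genes in the limma fit the difference of -0.34 had an adjusted p of 0.0247. Under the main filter 66.3% of genes were called in that comparison. All parental values lay below all vector values.

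Of 12 listed pluripotency genes that act with SALL4 or belong to its family, 5 were tested with EGR1 overexpression and 0 were called by limma, or passed an unadjusted p under 0.05, in either direction. All genes were called at 29.6% there in either direction. Between the lines 3 of 5 were called higher in MHCC97H and 1 lower, beside 38.8% and 40.9% of all genes. SOX2, a stem cell transcription factor, was 0.0215 FPKM as a mean in vector and 8.51 ± 0.423 in parental cells. POU5F1, the other core factor, was 1.45 ± 0.248 and 0.596 ± 0.368 FPKM. In EGR1_KO libraries KLF4 was called higher at 0.22 (adjusted p = 0.0406) and DNMT3B, a DNA methyltransferase, lower at -0.39 (adjusted p = 0.0163). After the GC and length correction KLF4 changed sign to -0.16 (adjusted p = 0.0952), while DNMT3B was -0.67 (adjusted p = 8.53e-04).

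Among 18 listed fetal liver and progenitor markers, AFP, the fetal serum protein, followed the members between the lines, at 9.11 to 14.9 FPKM in vector and 0.345 to 0.534 in parental libraries. Others did not. SPP1, a secreted matrix protein, and KRT19, a biliary keratin, were 0.0264 and 0.624 FPKM as means in vector and 262 and 131 in parental cells. In that comparison 5 of 12 were called higher and 7 lower, beside 38.8% and 40.9% of all genes. With EGR1 overexpression 2 of 10 were called higher and 4 lower, beside 19.2% and 10.4% of all genes, or 3 and 4 with the correction. SOX9, a progenitor transcription factor, was lower at -0.87 (limma, adjusted p = 0.00274). PEG10 ran the other way at 1.17 (limma, adjusted p = 1.32e-04). So did CD44, at 0.831 FPKM in vector and 2.56 in EGR1 cells, which passed the filter through the EGR1 libraries alone. Between EGR1_KO and parental libraries 6 of 11 were called higher and 3 lower, beside 34.8% and 31.5% of all genes, or 6 and 4 with the correction. CD24, a surface glycoprotein, was higher at 2.56 (limma, adjusted p = 5.25e-07). TSPAN8 and SOX4 were lower, at -0.82 and -0.49 (limma, adjusted p = 0.00120 and 0.00130).

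The order of the members by level differed between the lines, on FPKM without the GC and length correction. In vector cells it ran HMGA2, IGF2BP1, IGF2BP2, LIN28B, IGF2BP3, GPC3, IGF2, SALL4 and DLK1, and only the neighbours IGF2BP1 and IGF2BP2 overlapped. In EGR1 cells IGF2BP2 stood above IGF2BP1 without overlap, and SALL4 and IGF2 overlapped. In parental MHCC97H cells IGF2BP3 led alone, IGF2BP1, HMGA2 and IGF2BP2 followed with overlap between neighbours, and SALL4 and IGF2 came next. In EGR1_KO cells IGF2BP3 and IGF2BP1 overlapped at the top, as did HMGA2 and IGF2BP2 below them.

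For each expressed member the genes with the most similar pattern within the lines were found among 5807 genes. Pearson's r was taken of log2(FPKM + 1), each value less its line mean, over the 12 libraries. Levels between the lines do not enter it. IGF2BP3 had the closest neighbours, PSD3 at r = 0.995, TAOK1 at 0.993 and GPD2 at 0.993. PSD3 was 1.85 FPKM in vector, 2.71 in EGR1, 8.50 in parental and 4.61 in EGR1_KO cells as means, the same order as IGF2BP3 except that the EGR1_KO mean of PSD3 stayed above its EGR1 mean. LIN28B was nearest to KHDC1 (0.959), GAD1 (0.956) and L3HYPDH (0.953), of which KHDC1 was also listed at 0 in MHCC97H cells. L3HYPDH ran opposite to LIN28B between the lines, at 4.12 FPKM in vector and 14.5 in parental cells. LIN28B and GPC3 were at 0 in all MHCC97H libraries, so only the PLC/PRF5 libraries inform their r. SALL4 was nearest to EIF5A2 (0.969), HMGA2 to RAB31 (0.957), IGF2BP1 to LMTK2 (0.972) and IGF2BP2 to NHSL1 (0.957). GPC3 and IGF2 had looser neighbours, PITX3 at 0.907 and FGFR3 at 0.869. These correlations describe 12 libraries in 4 groups that share depth and composition, and carry no test.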

How the data were processed

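Polyadenylated RNA was selected before library preparation. A duplex-specific nuclease step followed, which depletes abundant double-stranded cDNA and so can compress high levels. The authors deposited FPKM per gene name for 12 libraries, made with StringTie on hg38 per the labels. Aligner, versions and annotation are not given in the sources used here. Every column was used. FPKM keep no read numbers, so depth is unknown and no count test was run.

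Values were used as log2(FPKM + 1). Each comparison was fitted on its 6 libraries by limma 3.58.1 (R 4.3.3) with an intensity trend. Genes averaging at least 1 FPKM in those libraries entered, and tests were 2-sided, with Benjamini-Hochberg adjustment over all of them. The fit was tested on simulated data. For the correction, a spline (5 degrees of freedom) for GC content and another for length were removed. Both were taken from the longest basic GENCODE 29 transcript of each gene. This need not be the principal transcript that was searched for let-7 matches. A match to the annotation was found for 92.8% to 93.3% of genes tested. A biological difference that tracks GC content is removed as well. Plots used matplotlib 3.10.9.

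The members and gene lists were chosen with earlier results of these data known. Genes named beside them were drawn mainly from the 2 largest rises and falls per list and comparison and list genes called in both EGR1 comparisons. The 3 genes with the most similar pattern within the lines were a further source. Only some of the genes under these rules are named, so the named genes are not a complete set. IGF1, IGF1R, LIN28A and INS-IGF2 were named for their role, after their values were seen. Alternatives were another pseudocount, filter, scaling, quantile normalization, no trend, all libraries in a single fit, a replicate block, stricter thresholds and leaving out each library.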

Additional observations from a re-analysis of the deposited data

How the results depend on the processing

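With EGR1 overexpression the number of members called higher (2) was 1 with all detected genes, total scaling or quantile normalization, 0 with the GC and length correction (also with the replicate block), an adjusted p under 0.01 or a 2-fold change, and 0 to 2 when a library was left out. The number called lower (1) was 0 with all detected genes, either scaling, the replicate block, the stricter p or 2-fold change, and 0 to 1 without a library. Under the EGR1_KO label members called higher (0) were 2 with the correction and 1 with correction and block. Members called lower (1) were 3 with all detected genes and 0 at 2-fold. The further members with all detected genes were IGF2 and SALL4, both under 1 FPKM in both groups. The share of all genes called in that fit is not given here, and it was 66.3% under the main filter. IGF2 with EGR1 overexpression reversed to -0.067 under quantile normalization. IGF2BP1 there reversed to -0.0097 under total scaling, -0.0089 under quantile normalization, -0.0927 with the correction, with and without the block, and ranged from -0.0905 to 0.0925 without a library. HMGA2 under the EGR1_KO label reversed to 0.54 with the correction, with and without the block. The cause of these shifts was not tested. The line calls of IGF2BP1, IGF2BP2, IGF2BP3 and HMGA2 held in all 16 fits. Of 345 alternative values of single genes, 311 kept direction and call, 22 lost the call, 3 gained it and 9 reversed. The 345 include EGR1 itself and the line differences of GPC3, IGF2, LIN28B and SALL4, all called in all 16 fits. The filter fixed the direction of those line differences, so the 311 do not measure how stable the tested members are. Of 990 counts of the other lists 107 moved by over 1.5 times.

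Over all genes with EGR1 overexpression, 2240 were called higher and 1217 lower. These were 897 and 571 at an adjusted p under 0.01, 139 and 67 at 2-fold, 1192 to 2767 and 727 to 1240 without a library, with the lowest values without EGR1 replicate 2, and 1931 lower with the correction. Of all calls 64.8% were higher as deposited, 59.3% with total scaling, 46.0% with quantile normalization and 48.6% with the correction. Under the EGR1_KO label 4029 and 3642 became 2628 and 2421 with the correction, 2596 higher with correction and block, and 594 and 435 at 2-fold. There 52.5% of calls were higher, and 41.5% with total scaling, which moved the median of all genes to -0.11. Between the lines 4675 and 4932 became 2123 and 2308 at 2-fold. The corrected fits held 10829 genes with EGR1 overexpression and 10806 under the EGR1_KO label, against 11671 and 11577 as deposited.

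Replicate numbers did not pair the libraries. The same-number correlations of deviations were -0.13, 0.14 and -0.08 in PLC/PRF5, 0.03, 0.03 and 0.47 in MHCC97H, and -0.39, -0.01 and -0.05 between the lines. With the replicate block HMGA2 with EGR1 overexpression had an adjusted p of 0.0637 (limma), and LIN28B and IGF2BP3 had 0.0173 and 0.0317.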
